A study of Mus musculus with 6 samples.

Results

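The mitochondrial ribosomal protein genes are the nuclear genes named Mrpl or Mrps followed by a number, and 76 of the 23227 genes in each exonic table carry such a name. All 76 are also among the 23231 genes of each intronic table. They were chosen by name and not by their values, although earlier results of these data were known at the time.

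Total RNA depleted of ribosomal RNA of immortalized murine mesenchymal stem cells was sequenced; the sample titles name these cells fibroblasts. Dicer KO cells lack functional Dicer, the enzyme that cuts microRNA precursors, and were set against Dicer WT cells. Dicer WT cells that over-expressed Pbx3, Sox9 or Tead4, which are transcription factors, were each set against Dicer WT cells transfected with vector. The 3 factor comparisons share the same vector libraries. Dicer KO and Dicer WT cells are 1 clone each, and an effect of genotype cannot be told apart from one of the clone. The labels list 1 sample per group, but whole reads of 2 libraries per group were recovered from the deposited group means, and these are called library A and library B.

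The mitochondrial ribosome translates the few messages of the mitochondrial genome, which encode core subunits of the respiratory chain. Its RNA is made in the mitochondrion, whereas its proteins are encoded in the nucleus, made in the cytosol and imported. Members named Mrps belong mostly to the small subunit, which decodes the message, and members named Mrpl to the large subunit, which joins the amino acids. By structure, 26 members belong to the small subunit and 49 to the large subunit, which includes Mrps18a and Mrps30. Mrps36 is now counted as a component of the 2-oxoglutarate dehydrogenase complex. Proteins with a counterpart in bacteria are encoded by 46 members, and proteins found only in mitochondrial ribosomes by 29 members.

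Promoters are shown for Mrpl33 and Mrpl51, which fell in Dicer KO cells. For Mrpl38 and Mrps28, which rose, no promoter window was available, so theirs could not be looked at. The windows of Mrpl33 and Mrpl51 both hold the ETS-family motif CCGGAAG, the core bound by GABP. Among members that did not pass the test in Dicer KO cells, those of Mrpl3 and Mrps22 hold it and those of Mrpl42 and Mrpl44 do not. Whether the motif goes with the change was not tested. GABP is a known activator of nuclear genes for mitochondrial proteins. Capitals mark the motif in these RefSeq sequences of 300 bases from GRCm38.p6. Mrpl33 lies at chr5:31613701-31614000 on the plus strand and Mrpl51 at chr6:125191950-125192249 on the plus strand.
Mrpl33: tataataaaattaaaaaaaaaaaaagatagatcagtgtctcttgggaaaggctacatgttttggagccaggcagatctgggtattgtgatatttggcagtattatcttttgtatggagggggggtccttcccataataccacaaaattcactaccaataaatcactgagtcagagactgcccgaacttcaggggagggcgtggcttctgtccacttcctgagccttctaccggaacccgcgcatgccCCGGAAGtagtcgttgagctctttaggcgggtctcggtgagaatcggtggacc
Mrpl51: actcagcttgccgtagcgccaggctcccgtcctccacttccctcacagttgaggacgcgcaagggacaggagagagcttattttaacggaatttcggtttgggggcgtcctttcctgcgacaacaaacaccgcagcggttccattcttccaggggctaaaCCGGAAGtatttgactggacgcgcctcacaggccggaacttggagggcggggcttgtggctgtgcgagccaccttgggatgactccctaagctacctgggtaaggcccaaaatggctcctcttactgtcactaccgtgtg

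Promoter windows were matched by symbol for 67 of the 76 members. The motifs were sought on both strands. CCGGAAG was found in 24 of these 67 members, or 35.8%, and in 12.8% of the promoters of the 15671 genes of the tables that had one. A YY1 motif was in 5 members, or 7.46%, and in 1.06% of all. An NRF1 motif was in only 3 members, or 4.48%, and in 1.49% of all. The E-box CACGTG, bound by MYC and USF, was in 7.46% of members and 9.28% of all, and the GC box GGGCGG in 49.3% of members and 50.6% of all. None of these 5 motifs contains another, and a match describes letters in the window and is not evidence of binding.

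Exonic depth was 6130267 to 23501655 reads and intronic depth 3156973 to 10205497 reads over the 12 libraries. Dicer1 had 935 and 1067 exonic normalised counts in Dicer KO libraries, against 1407 and 1343 in Dicer WT libraries. This log2 fold change of −0.46 ± 0.14 did not pass (limma adjusted p = 0.0859), and since the counts cover the whole gene and the deleted exons are not given, it does not check the deletion. The log2 fold change of the over-expressed gene over vector was 7.04 for Pbx3, 7.17 for Tead4 and 1.29 for Sox9, and that of Sox9 did not pass (limma adjusted p = 0.272). Of 13 mesenchymal markers, 12 averaged 50 or more normalised counts in every group and Thy1 was at 0, while 15 markers of blood, endothelial, epithelial and muscle cells summed to at most 109 normalised counts in any library. Summed mesenchymal markers reached 85374 to 87106 in Dicer KO libraries, against 104200 to 120513 in Dicer WT libraries, and their part in the results below was not tested.

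All members had exonic reads in all groups. Fewer cells that express a gene and less of its RNA per cell cannot be told apart in these bulk samples. Mean exonic levels ran from 191 to 2485 normalised counts in the Dicer KO and WT comparison, so every member passed the minimum mean of 50 used for testing. Per kilobase of mRNA, the members spanned 72.2 to 2412 normalised counts in Dicer KO cells, with a median of 665. In Dicer WT cells they spanned 86.8 to 3777 with a median of 671. Thus the level per kilobase of the most and the least abundant member differed by more than an order of magnitude in both genotypes.

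The 4 highest mean levels per kilobase in Dicer WT cells were those of large-subunit genes with coding sequences under 450 nt. Mrpl33 averaged 1542 normalised counts per kilobase in Dicer KO cells, against 3966 and 3587 in Dicer WT libraries A and B. Mrpl54 averaged 2242 in Dicer KO cells, against 3401 and 3130 in Dicer WT libraries. The Dicer WT libraries of Mrpl33 and Mrpl54 do not overlap each other. Mrpl20 averaged 2164 in Dicer KO cells, against 3660 and 2737 in Dicer WT libraries, and Mrpl42 averaged 1578 in Dicer KO cells, against 2867 and 2414 in Dicer WT libraries. The range of Mrpl20 overlaps those of the other 3, so its place in the order is not resolved. Nor is that of Mrpl42, since the small-subunit gene Mrps21 had 2525 and 2696 in Dicer WT libraries. The lowest levels per kilobase in Dicer WT cells were those of Mrpl47, with 101 in Dicer KO and 86.8 in Dicer WT cells, Mrpl48, with 72.2 in Dicer KO and 95.0 in Dicer WT cells, Mrps5, with 174 in Dicer KO and 143 in Dicer WT cells, and Mrps35, with 175 in Dicer KO and 158 in Dicer WT cells. In Dicer KO cells Mrpl17, at 154, lay below Mrps5 and Mrps35. In vector cells the same 4 genes were highest, at 1806 for Mrpl33, 1669 for Mrpl54, 1458 for Mrpl42 and 1401 for Mrpl20. The lowest in vector cells were 48.1 for Mrpl47, 50.3 for Mrpl48, 71.0 for Mrps5 and 76.6 for Mrpl17. Levels per kilobase use the mRNA length of the transcript with the longest coding sequence in GENCODE M21, and were scaled within each table.

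In Dicer KO cells the family as a whole stayed centred on its Dicer WT level. The median exonic log2 fold change of the 76 members was 0.01, beside 0.01 over all 10706 genes tested. Mrpl38 and Mrps28 rose and Mrpl33 and Mrpl51 fell, so that 4 of 76 members were called, where 16.6% of all genes tested were called, 9.28% higher and 7.36% lower (limma, Benjamini-Hochberg adjusted p under 0.05). At an unadjusted p under 0.05 there were 15 members, or 19.7%, where 34.2% of all genes tested were. The members spread less than the genes as a whole, with an SD of log2 fold changes of 0.38 against 0.95, and 52.6% of members but 39.6% of all genes lay within 0.25 of 0.

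**Figure D1:**
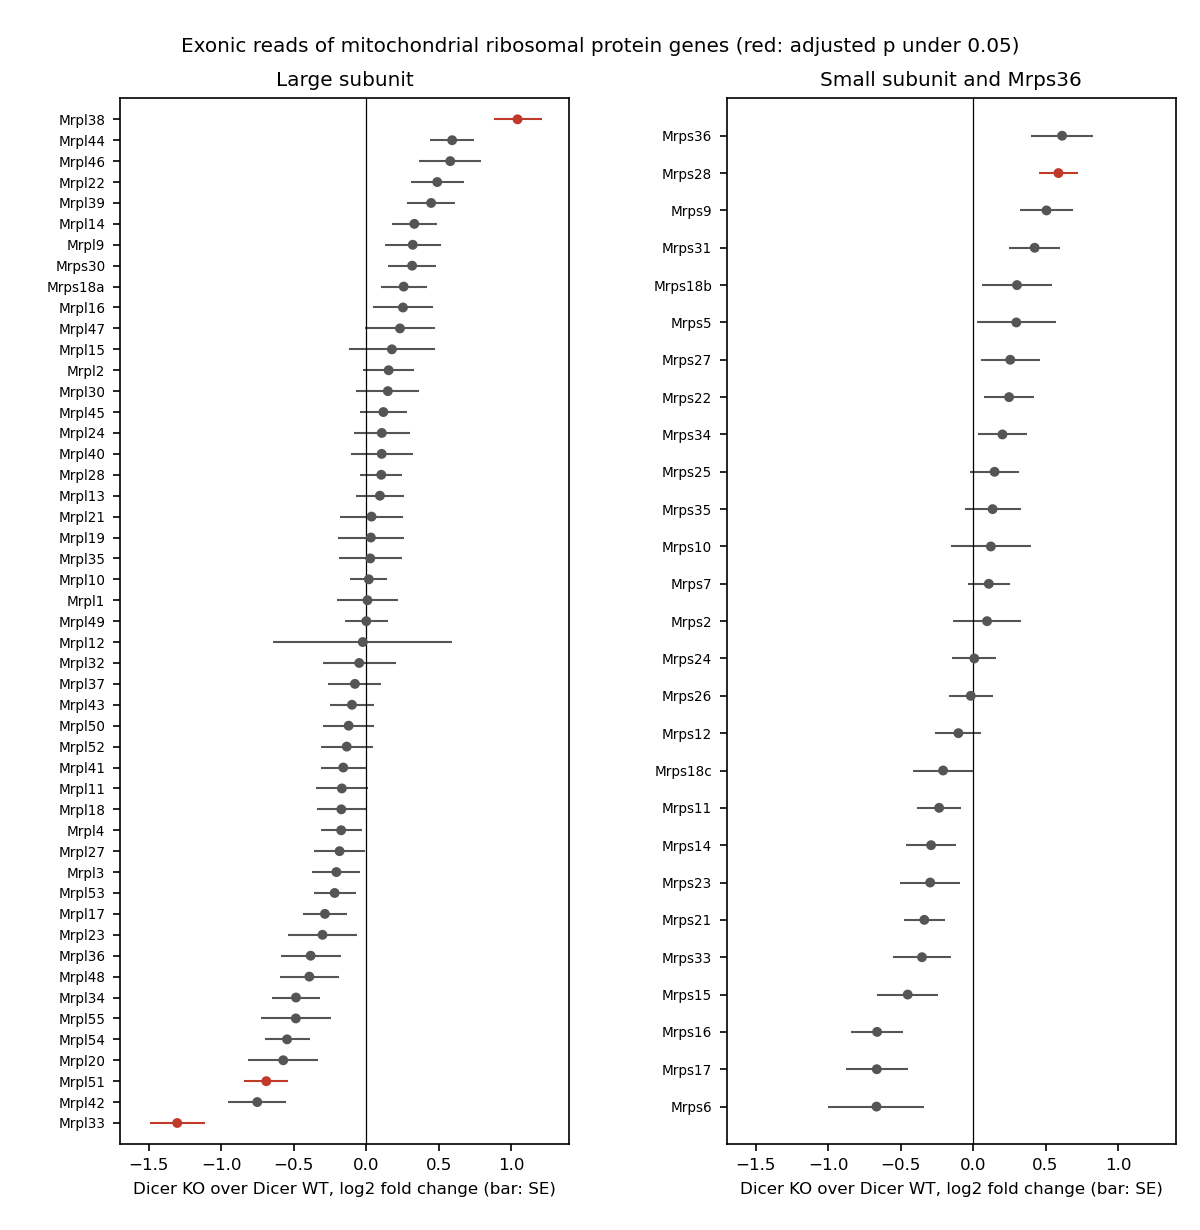
Log2 fold change of exonic reads in Dicer KO over Dicer WT cells for each member, large subunit on the left and small subunit with Mrps36 on the right; bars are the limma standard error from 2 libraries per group and red marks an adjusted p under 0.05. Values run from −1.31 for Mrpl33 to 1.04 for Mrpl38, and most lie within 0.5 of 0.

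Among large-subunit genes, Mrpl33 was the lowest. It encodes bL33m, one of the smallest ribosomal proteins, and had 846 and 628 normalised counts in Dicer KO libraries A and B, against 1896 and 1714 in Dicer WT libraries. Both Dicer KO libraries lay well below both Dicer WT libraries. Mrpl33 fell, with a log2 fold change of −1.31 ± 0.19 (SE, n = 2 libraries per group, limma adjusted p = 0.0147). Mrpl51, which encodes the mitochondria-specific protein mL51, had 1261 and 1127 normalised counts in Dicer KO libraries, against 2089 and 1772 in Dicer WT libraries. The groups of Mrpl51 did not overlap, and it fell by 0.69 ± 0.15 on the log2 scale (limma adjusted p = 0.0396). In the authors' deposited table, Mrpl33 had an adjusted p of 2.2e-05 and Mrpl51 one of 0.0509. Mrpl33 and Mrpl51 have no intronic reads in the tables, so their intronic change could not be read.

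Mrpl42 encodes another mitochondria-specific large-subunit protein and had 1208 and 893 normalised counts in Dicer KO libraries, against 1909 and 1607 in Dicer WT libraries. The groups did not overlap, but its log2 fold change of −0.75 ± 0.20 missed the threshold (limma adjusted p = 0.0599). In the authors' deposited table its adjusted p was 0.0355. Its introns moved the same way, with 750 and 598 normalised counts in Dicer KO libraries, against 1098 and 885 in Dicer WT libraries, and a log2 fold change of −0.56 ± 0.19 that did not pass (limma adjusted p = 0.157).

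Mrpl38 was the highest. It encodes the mitochondria-specific protein mL38 and had 1094 and 899 normalised counts in Dicer KO libraries, against 481 and 481 in Dicer WT libraries. Both Dicer KO libraries lay far above the 2 Dicer WT libraries, which were nearly equal. Mrpl38 rose, with a log2 fold change of 1.04 ± 0.17 (limma adjusted p = 0.0182). Its introns had 451 and 303 normalised counts in Dicer KO libraries, against 284 and 195 in Dicer WT libraries, a log2 fold change of 0.65 ± 0.29 that did not pass (limma adjusted p = 0.244). Mrpl44, whose protein mL44 carries a ribonuclease III-like fold, had 678 and 732 exonic normalised counts in Dicer KO libraries, against 469 and 466 in Dicer WT libraries. Its libraries did not overlap either, but its log2 fold change of 0.59 ± 0.15 missed the threshold (limma adjusted p = 0.0553).

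Among small-subunit genes, Mrps28 rose. It encodes bS1m and had 1088 and 1060 normalised counts in Dicer KO libraries, against 704 and 723 in Dicer WT libraries. The libraries of each genotype agreed within a few percent, and the log2 fold change was 0.59 ± 0.14 (limma adjusted p = 0.0441). Its introns hardly moved, with 3089 and 2499 normalised counts in Dicer KO libraries, against 3334 and 2658 in Dicer WT libraries, which overlapped. The lowest small-subunit genes were Mrps6 with a log2 fold change of −0.67 ± 0.33, Mrps17 with −0.66 ± 0.21 and Mrps16 with −0.66 ± 0.18, and none of these passed. Mrps36 had 267 and 223 normalised counts in Dicer KO libraries, against 162 and 156 in Dicer WT libraries, and its log2 fold change of 0.61 ± 0.21 did not pass either (limma adjusted p = 0.112).

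The calls rest on few libraries. Without Dicer KO library A or Dicer KO library B, fewer of all genes tested were called than with all libraries, so the drop was not confined to members. Without Dicer KO library A, Mrpl33 alone was called, and without Dicer KO library B no member was, while Mrpl33 and Mrpl38 then had limma adjusted p of 0.0520 and 0.0522. Mrpl51 stayed under the threshold only without Dicer WT library B, and Mrps28 did not in any of the 4 fits that left out a library, with limma adjusted p of 0.0856 to 0.252. Leaving out a Dicer WT library also added calls, all lower. Mrps6 was added without Dicer WT library A, with a log2 fold change of −1.08. Mrpl42 and Mrps17 were added without Dicer WT library B, with −0.88 and −0.90. Nothing says that the libraries are separate cultures, so a p-value here covers the spread of these libraries alone, and that spread may be technical. Libraries were made strand-specific, but the use of strand in counting is not given, and 24 of the 76 members overlap another RefSeq gene. Mrpl33 overlaps Gm38424, Mrps28 overlaps Gm15466, and Mrpl44 overlaps Wdfy1, so reads of these pairs may be mixed.

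**Figure D2:**
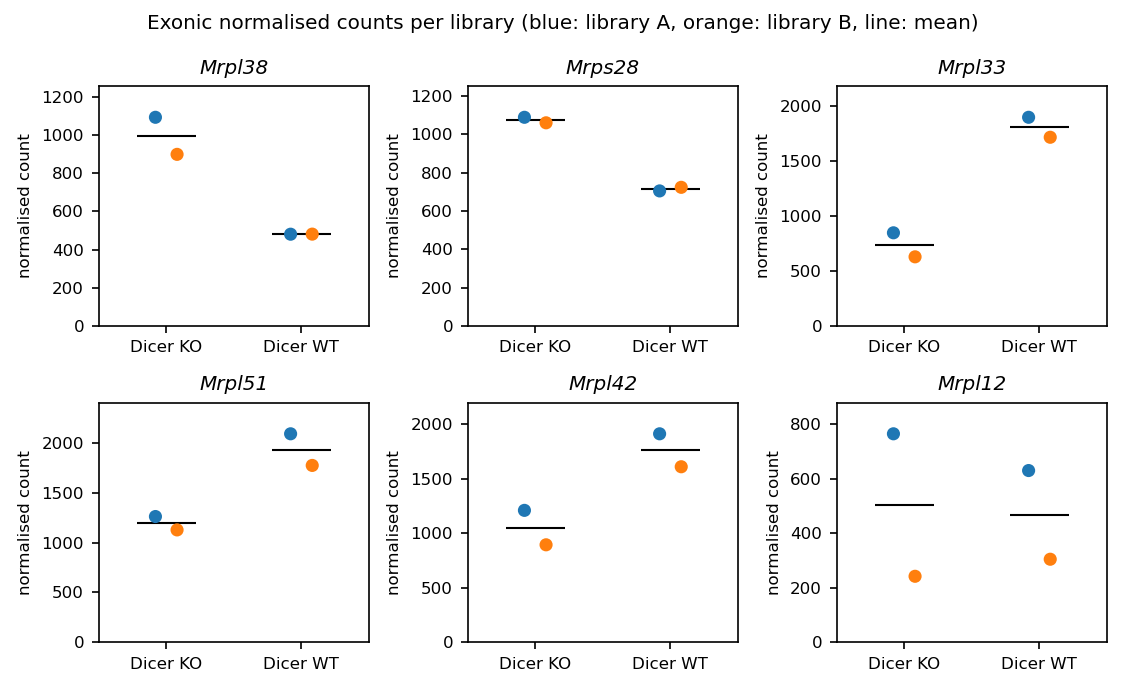
Exonic normalised counts of 6 members in the 2 Dicer KO and the 2 Dicer WT libraries; blue is library A, orange library B and the line their mean. Mrpl38 and Mrps28 are higher and Mrpl33, Mrpl51 and Mrpl42 lower in both Dicer KO libraries, while for Mrpl12 the libraries of each group lie further apart than the group means.

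The subunits did not separate. Small-subunit members had a median exonic log2 fold change of 0.05 and large-subunit members one of 0.00 in Dicer KO over Dicer WT cells. By origin, the median was 0.01 for members with a bacterial counterpart and 0.00 for those found only in mitochondria. The 13 members higher in both Dicer KO libraries were 17.1% of the family, where 33% of all genes tested were higher in both. The 22 members lower in both were 28.9%, where 30.3% of all genes tested were lower in both.

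Intronic reads, a measure of RNA not yet spliced, passed the minimum for 65 of the 76 members in Dicer KO and WT cells. Mrpl13, Mrpl33, Mrpl51 and Mrpl53 had none. No member was called in intronic reads, where 6.51% of all genes tested were, 2.86% higher and 3.65% lower (limma), and 3 members, or 4.62%, had an unadjusted p under 0.05, where 25.04% of all genes tested did. No member was called by limma voom or in the authors' deposited table either. Over all genes tested, limma called more when Dicer WT library A or Dicer WT library B was left out. Without Dicer WT library A, Mrps6 was called, and without Dicer WT library B, Mrps17 was, both lower. The intronic median of members was 0.04. In both Dicer KO libraries 15 members were higher than in both Dicer WT libraries and 14 were lower, where 29.2% and 28.4% of all genes tested were. The 3 lowest were Mrps6, Mrps17 and Mrpl50, at −0.997 ± 0.61, −0.98 ± 0.30 and −0.69 ± 0.22, and the 3 highest were Mrpl38, Mrpl27 and Mrpl44, at 0.65 ± 0.29, 0.62 ± 0.29 and 0.48 ± 0.26. Of the 65 members, 1 had a mean under 50 in 1 of the genotypes.

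Where exonic and intronic changes were set against each other in the same libraries, Mrpl50 stood out. Mrpl50, a mitochondria-specific large-subunit gene, had 69.0 and 83.8 intronic normalised counts in Dicer KO libraries, against 126 and 121 in Dicer WT libraries. Its exonic normalised counts were 387 and 441 in Dicer KO libraries, against 474 and 427 in Dicer WT libraries. Introns were thus lower in both Dicer KO libraries while exons overlapped. The exonic minus intronic log2 change was 0.57 ± 0.11 (limma adjusted p = 0.0483), and Mrpl50 was the 1 of 65 members called, where 3.34% of all genes tested were, 2.5% higher and 0.84% lower. It was not called without Dicer KO library A, without Dicer KO library B or without Dicer WT library B, with limma adjusted p of 0.0712 to 0.131. Other members were called in its place, Mrpl12 without Dicer KO library A, and Mrpl27, Mrpl38 and Mrps28 without Dicer WT library B. Over all genes tested, fewer were called without a Dicer KO library and more without a Dicer WT library. With all libraries, Mrps28 had a difference of 0.69 ± 0.16 (limma adjusted p = 0.0796) and Mrpl27 one of −0.80 ± 0.18 (limma adjusted p = 0.0765), and neither passed. Mrpl27 overlaps Eme1 in RefSeq.

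Members with short coding sequences were lower in Dicer KO cells than members with long ones, a pattern noticed after the values were seen. Of the 22 members with a coding sequence of up to 450 nt, 20 had a negative exonic log2 fold change and the median was −0.37. The 18 members above that and up to 600 nt had a median of −0.03, and the 21 members above 600 and up to 900 nt one of 0.11. The 15 longest members had a median of 0.26, and 13 of them had a positive log2 fold change. Over all genes tested, the medians of the same 4 length classes were −0.18, −0.12, −0.04 and 0.06. The short class held Mrpl33, Mrpl51 and Mrpl42 and the long class held Mrpl38 and Mrpl44, while Mrps36, in the short class at 0.61, was an exception.

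**Figure D3:**
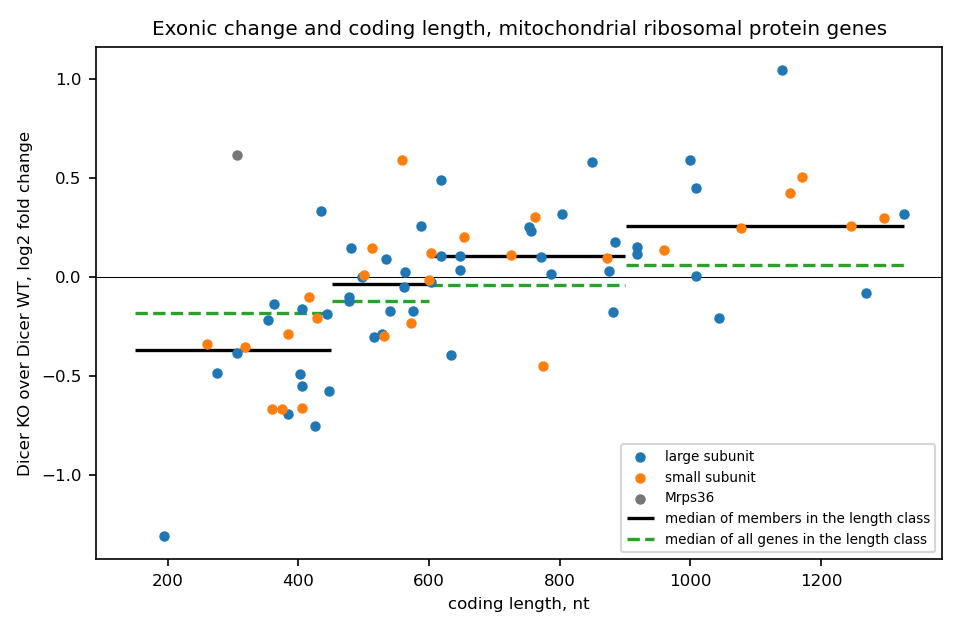
Exonic log2 fold change in Dicer KO over Dicer WT cells of each member against its coding length in nucleotides; solid lines are medians of members and dashed lines medians of all genes tested in each length class. The medians of members step from −0.37 in the shortest class to 0.26 in the longest, while those of all genes step from −0.18 to 0.06.

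Across the 76 members, Spearman's rho between the exonic log2 fold change and coding length was 0.64, beside 0.13 over the 9609 genes tested that have a coding length. With the whole mRNA length rho was 0.17, with the GC content of the mRNA 0.05 and with mean level −0.10. These points share the same 4 libraries and are genes, not replicates. In single library pairs of Dicer KO over Dicer WT, rho was 0.48 to 0.65 and the median of the longest class −0.10 to 0.53, and it was 0.40 for the intronic change of 65 members. For 74 nuclear genes of oxidative phosphorylation, chosen by name, rho with coding length was 0.60, and for 76 cytosolic ribosomal protein genes it was 0.18. Coding length also moved with differences between libraries of 1 group: for library A minus library B of the same group, rho was 0.04 for Dicer KO, 0.31 for Dicer WT, 0.52 for Pbx3, 0.30 for Sox9, 0.22 for Tead4 and 0.32 for vector. In the factor comparisons, rho between the exonic log2 fold change of members and coding length was 0.45 for Pbx3, 0.14 for Sox9 and 0.19 for Tead4, beside 0.13, 0.17 and 0.04 over all genes tested that have a coding length. For Pbx3 the medians of the 4 length classes were −0.13, −0.06, −0.05 and 0.06, from the shortest to the longest. The part of library preparation in the length pattern was not tested.

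Genes that work with the mitochondrial ribosome were read from lists by role. None of the 7 subunit genes not named Mrp was called in exonic reads of Dicer KO cells, where the highest, Dap3, which encodes the small-subunit protein mS29, had a log2 fold change of 0.35 ± 0.13 (limma adjusted p = 0.133). None of the 20 assembly and rRNA modification genes tested, of 22 listed, was called. Of these lists, 1 and 3 genes had an unadjusted p under 0.05 in limma, where 34.2% of all genes tested did.

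The list of translation factors also holds Lrpprc and Oxa1l, which have other roles. Of its 13 genes tested, 4 rose and none fell, where 9.28% of all genes tested rose and 7.36% fell. Gfm2, which encodes the factor that recycles mitochondrial ribosomes, had 1352 and 1113 normalised counts in Dicer KO libraries, against 573 and 558 in Dicer WT libraries, and rose by 1.12 ± 0.16 on the log2 scale (limma adjusted p = 0.0146). The Gfm2 libraries of Dicer KO lay about as far above Dicer WT as those of Mrpl38. Gfm1, the elongation factor, rose by 0.78 ± 0.18, Lrpprc, which stabilises mitochondrial messages, by 0.79 ± 0.19, and Oxa1l, which inserts new proteins into the inner membrane, by 0.73 ± 0.14. In intronic reads Gfm2 rose as well, by 0.72 ± 0.13 (limma adjusted p = 0.0413).

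Of 17 mitochondrial tRNA synthetase genes, 2 rose, namely Wars2 by 0.89 ± 0.16 and Iars2 by 0.66 ± 0.13, and none fell. This was 11.8% of the list, near the 9.28% of all genes tested that rose. Of 10 chaperone and protease genes, 4, or 40%, rose and none fell. Hspa9, the mitochondrial Hsp70, had 24352 and 24305 normalised counts in Dicer KO libraries, against 13170 and 10979 in Dicer WT libraries, and rose by 1.02 ± 0.15 (limma adjusted p = 0.0156). Lonp1, Afg3l2 and Trap1 rose by 0.75 ± 0.12, 0.75 ± 0.18 and 0.74 ± 0.15. None of 8 genes for mitochondrial DNA maintenance and transcription was called in limma. Of these, 1 had an unadjusted p under 0.05, where 34.2% of all genes tested did.

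Regulators were read last. None of 8 regulators tested, of 9 listed, was called in exonic reads. Of these 8, 3 had an unadjusted p under 0.05 in limma, where 34.2% of all genes tested did. Gabpa, the DNA-binding subunit of GABP, had 1795 and 1776 normalised counts in Dicer KO libraries, against 2584 and 2134 in Dicer WT libraries, and its log2 fold change of −0.40 ± 0.15 did not pass (limma adjusted p = 0.130). Ppargc1b, a coactivator of mitochondrial genes, had 280 and 302 intronic normalised counts in Dicer KO libraries, against 67.5 and 75.1 in Dicer WT libraries, and rose in intronic reads by 2.01 ± 0.19 (limma adjusted p = 0.00968). Its exons, with 66.0 and 77.5 normalised counts in Dicer KO libraries against 9.43 and 10.0 in Dicer WT libraries, had a mean under 50 and were not tested. Ppargc1a, the related coactivator, had 19.3 and 24.8 exonic normalised counts in Dicer KO libraries, against 62.2 and 243 in Dicer WT libraries. Its log2 fold change of −2.44 ± 0.69, of opposite sign, did not pass (limma adjusted p = 0.0694). For comparison, 1 of 77 cytosolic ribosomal protein genes rose and 12 fell in exonic reads, with a median of −0.24. Both directions together were 16.9% of the list, near the 16.6% of all genes tested that were called. Most of the list's calls were lower, whereas 9.28% of all genes tested rose and 7.36% fell. Of the 77 genes, 68 had a negative log2 fold change. Among 74 genes of oxidative phosphorylation, 5 rose and 2 fell, or 9.46%, with a median of 0.08. Whether these lists differ from the mitochondrial ribosomal genes was not tested.

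In the factor comparisons no member was called. This held in exonic and intronic reads and for the exonic minus intronic change, in limma, and in exonic and intronic reads in limma voom and the authors' deposited tables. Of all genes tested in exonic reads, limma called 0.0102% for Pbx3, 0.547% for Sox9 and 0.143% for Tead4, so few genes were called at all. By direction these were 0.454% higher and 0.0928% lower for Sox9, and 0.0817% higher and 0.0612% lower for Tead4. In intronic reads it called 0% for Pbx3, 1.99% for Sox9, with 1.45% higher and 0.538% lower, and 1.61% for Tead4, with 0.757% higher and 0.851% lower. On the exonic minus intronic change it called 0.0125% for Pbx3, 0.0128% for Sox9 and 0.0251% for Tead4, all higher. Exonic reads of all 76 members passed the minimum in each, and intronic reads of 52 for Pbx3, 48 for Sox9 and 52 for Tead4.

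**Figure D4:**
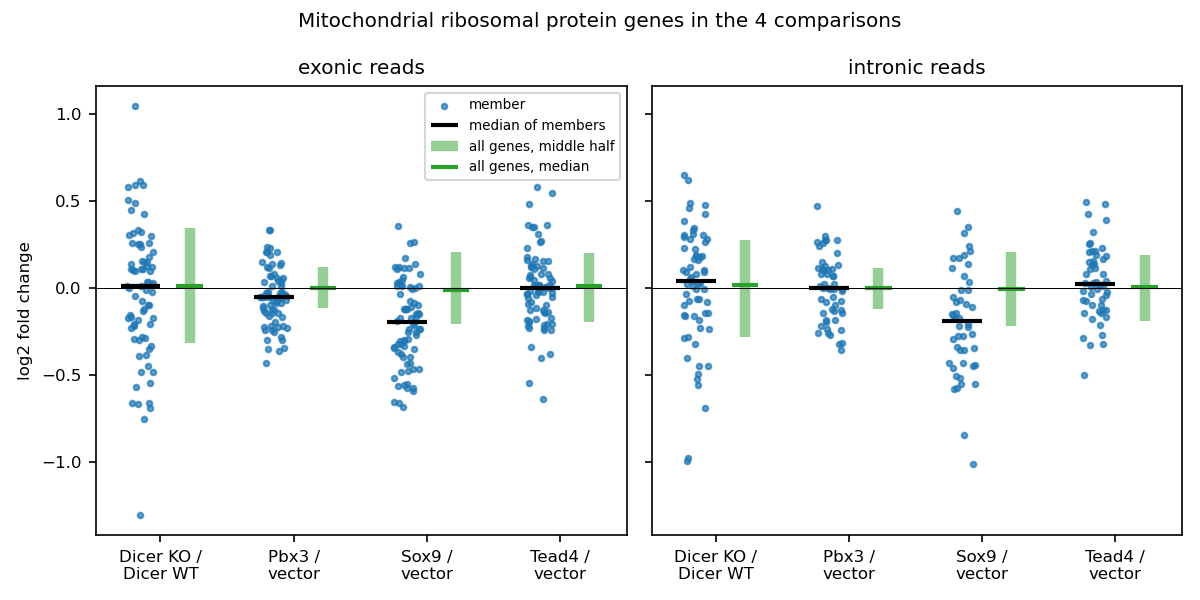
Log2 fold changes of the tested members in the 4 comparisons, exonic reads on the left and intronic reads on the right; black lines are medians of members, green lines and bars the median and interquartile range of all genes tested. The members sit lowest in Sox9 over vector cells, with medians of −0.20 in exonic and −0.19 in intronic reads.

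For Pbx3 over vector, the median of members was −0.06 in exonic and 0.00 in intronic reads, with no member at an unadjusted p under 0.05. The lowest exonic log2 fold changes were −0.43 ± 0.18 for Mrpl41, −0.36 ± 0.25 for Mrps25 and −0.35 ± 0.21 for Mrps35. The highest were 0.33 ± 0.19 for Mrps10, 0.33 ± 0.17 for Mrpl4 and 0.23 ± 0.17 for Mrpl28. In both Pbx3 libraries 5 members were higher and 11 lower than in both vector libraries in exonic reads, where 12.1% and 12.5% of all genes tested were. In intronic reads Mrpl22, Mrps6 and Mrps25 were lowest, at −0.36, −0.32 and −0.32, and Mrps30, Mrps22 and Mrpl46 highest, at 0.47, 0.30 and 0.28.

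For Sox9 over vector, most members were lower without any passing the test. Of 76 members, 56 had a negative exonic log2 fold change and the median was −0.20, beside −0.02 over all genes tested. In both Sox9 libraries 34 members, or 44.7%, were lower than in both vector libraries, where 23.4% of all genes tested were. The 9 members with an unadjusted p under 0.05 in limma were all lower, and at 11.8% they were near the 13.0% of all genes tested in either direction. In intronic reads the median was −0.19, beside 0.00 over all genes tested, and 21 of 48 members, or 43.8%, were lower in both Sox9 libraries, where 24.9% of all genes tested were. Of those 48, 5 had a mean under 50 in 1 of the groups.

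Mrpl54, which encodes a mitochondria-specific large-subunit protein, was the lowest for Sox9 in both kinds of reads. It had 543 and 499 exonic normalised counts in Sox9 libraries A and B, against 758 and 925 in vector libraries, a log2 fold change of −0.68 ± 0.17 (limma adjusted p = 0.197). Its introns had 36.5 and 46.5 normalised counts in Sox9 libraries, against 82.9 and 85.9 in vector libraries, a log2 fold change of −1.02 ± 0.26 (limma adjusted p = 0.105). Neither passed, although the groups did not overlap in either kind of reads. Mrpl42 had 596 and 430 exonic normalised counts in Sox9 libraries, against 944 and 678 in vector libraries, with a log2 fold change of −0.66 ± 0.23 in exonic and −0.85 ± 0.23 in intronic reads. Mrpl40 followed with −0.66 ± 0.21 in exonic reads and Mrpl35 with −0.58 ± 0.27 in intronic reads. The introns of Mrpl35 averaged 43.9 in Sox9 and 66.5 in vector cells, so they too reached the minimum only through vector cells. The highest for Sox9 were Mrps28, Mrpl28 and Mrpl47 in exonic reads, at 0.36, 0.27 and 0.26, and Mrpl14, Mrps9 and Mrpl45 in intronic reads, at 0.44, 0.35 and 0.31.

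The exonic Sox9 counts turned on 1 vector library, among members as among all genes tested. Without vector library B, 10 members, or 13.2%, were called in exonic reads, all lower, where 13.1% of all genes tested were called. Without vector library A only Mrpl54 was, where 2.60% of all genes tested were. In intronic reads Mrpl42 was called, lower, without Sox9 library A and again without vector library B. The median of members was −0.31 without vector library B and −0.10 without vector library A. Cytosolic ribosomal protein genes had a median of −0.25 for Sox9 in exonic reads, and oxidative phosphorylation genes one of −0.04. Mesenchymal markers had a median of 0.32 in the same reads, and their part was not tested.

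For Tead4 over vector, Mrpl33 was again the lowest member in exonic reads. It had 518 and 576 normalised counts in Tead4 libraries, against 816 and 887 in vector libraries, and the groups did not overlap. Its log2 fold change of −0.64 ± 0.14 did not pass (limma adjusted p = 0.149). Mrpl38 was the highest, with 437 and 383 normalised counts in Tead4 libraries, against 322 and 232 in vector libraries, and a log2 fold change of 0.58 ± 0.20 (limma adjusted p = 0.263). These 2 genes were thus the ends of the range both here and in Dicer KO cells, which have other libraries as their control, and neither passed for Tead4.

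Other members at the ends for Tead4 were Mrps17 and Mrpl12, with exonic log2 fold changes of −0.55 ± 0.19 and −0.41 ± 0.40, and Mrpl49 and Mrps10, with 0.55 ± 0.18 and 0.48 ± 0.17. Mrpl49 overlaps Syvn1 in RefSeq. In intronic reads Mrps17, Mrpl3 and Mrpl30 were lowest, at −0.50, −0.33 and −0.32, and Mrpl50, Mrpl49 and Mrpl45, whose protein tethers the ribosome to the inner membrane, highest at 0.49, 0.48 and 0.42. In both Tead4 libraries 16 members were higher and 13 lower than in both vector libraries in exonic reads, where 25.2% and 24% of all genes tested were. The median of members was 0.00 in exonic and 0.02 in intronic reads, and 7 members in exonic and 1 in intronic reads had an unadjusted p under 0.05. These were 9.21% and 1.92% of members, where 15.9% and 15.5% of all genes tested had such a p. Without vector library A, 6 members were called higher and 1 lower in exonic reads, or 9.21% in all, where 11.6% of all genes tested were. Without vector library B, 1 was called higher and 7 lower, or 10.5%, where 24.2% of all genes tested were; Mrpl33 was lower in both of these fits. In intronic reads Mrps17 was called, lower, without vector library B. Of the 52 members tested in intronic reads, 3 had a mean under 50 in 1 of the groups.

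The members' median difference between the 2 libraries of a genotype was larger than that between Dicer KO and Dicer WT. Library A is the library that lies to the same side along the difference that all groups share, read from all genes, so the letters are a description and carry no label of their own. In exonic reads 73 of 76 members were higher in library A than in library B of Dicer KO cells, with a median difference of 0.28 on the log2 scale. In Dicer WT cells 64 members were higher in library A, with a median of 0.24. The medians were 0.22 in Pbx3, 0.16 in Sox9, 0.07 in Tead4 and 0.21 in vector cells, where those of all genes tested were 0.02 to 0.04 over the 6 groups. Of the 76 members, 34, or 44.7%, were higher in library A in all 6 groups, where 17.5% of the 9585 genes tested in every comparison were.

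**Figure D5:**
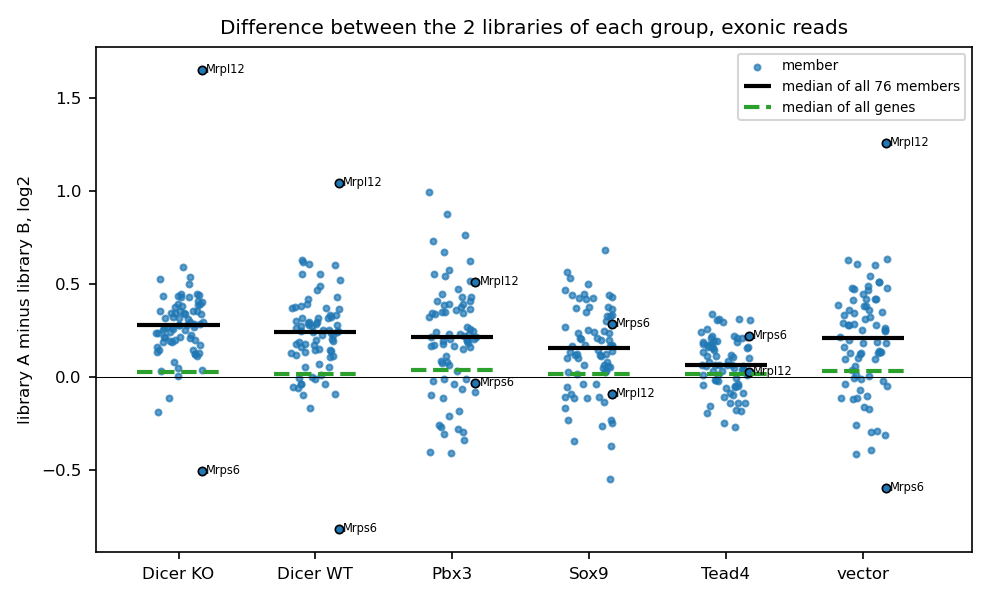
Log2 difference between library A and library B of each group in exonic reads, with a point per member, a solid line for the median of members and a dashed line for the median of all genes tested. The medians of members run from 0.07 in Tead4 to 0.28 in Dicer KO, and Mrpl12 and Mrps6 lie at opposite ends in Dicer KO, Dicer WT and vector cells.

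Mrpl12 differed most between libraries. It encodes bL12m, the stalk protein that receives translation factors and also binds the mitochondrial RNA polymerase. It had 766 and 243 normalised counts in Dicer KO libraries A and B, against 631 and 305 in Dicer WT libraries. In vector cells it had 361 and 150, in the scale of the Pbx3 table. The libraries within a group therefore differed by up to 1.65 on the log2 scale, while the log2 fold change of Dicer KO over Dicer WT was −0.02 ± 0.62. In Sox9 and Tead4 cells the libraries were nearly equal, at 126 and 135 normalised counts in Sox9 and 175 and 172 in Tead4. Myc, a growth regulator, had 1558 and 910 exonic normalised counts in Dicer KO libraries A and B, against 1758 and 828 in Dicer WT libraries, and its part in the library difference was not tested.

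Mrps6 went the other way in Dicer cells. It encodes the small-subunit protein bS6m and had 334 and 474 exonic normalised counts in Dicer KO libraries, against 475 and 840 in Dicer WT libraries. Its gene overlaps Slc5a3, a myo-inositol transporter gene, in RefSeq. Slc5a3 had 1252 and 3006 exonic normalised counts in Dicer KO libraries, against 2282 and 7608 in Dicer WT libraries. The introns of Mrps6 had 1639 and 3389 normalised counts in Dicer KO libraries, against 2712 and 8160 in Dicer WT libraries. The intronic value of Mrps6 followed the exonic value of Slc5a3 in libraries of the same letter, while Slc5a3 itself had no intronic reads. The same held for Sox9, where Mrps6 introns had 925 and 1031 normalised counts in Sox9 libraries, against 1141 and 1808 in vector libraries, and Slc5a3 exons had 853 and 926 in Sox9 libraries, against 977 and 1483 in vector libraries. Reads of Mrps6 and Slc5a3 cannot be told apart here, so the exonic and intronic values of Mrps6 above are uncertain.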

How the data were processed

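The submitters' processing notes name Bowtie2, DESeq 1.10.1 and the build mm9. As the authors deposited them, the signal columns are group means of read counts divided by size factors, for exonic and intronic reads. The authors' deposited tables also hold fold ratio, log2 and p-value columns. The annotation and counting rules were not stated. Group means resolved into whole reads of 2 libraries per group for 100% of genes (tolerance 1e-09), and 0 vector read counts differed between tables. limma 3.58.1 in R 4.3.3 tested log2(normalised count + 1), 2 libraries against 2, for genes with a mean of 50 or more, with a mean-variance trend and Benjamini-Hochberg adjustment over all of them (threshold 0.05). The exonic minus intronic change was tested likewise without a trend, on exonic and intronic libraries of the same letter, a pairing inferred from the data. The read recovery and the exonic and intronic tests were tested on simulated data, the exonic minus intronic test was not. Paired values are libraries A and B. Members and lists were chosen with earlier results of these data known. Named members are the 3 highest and 3 lowest per comparison and kind of reads, those called in exonic reads or on the exonic minus intronic change, and the 4 highest and lowest levels per kilobase in Dicer WT and vector cells; from other lists, at most 4 called genes. Mrps16, Dap3, Gabpa, Myc, Slc5a3, Ppargc1a, Ppargc1b, Mrps21 and the library differences of Mrpl12 and Mrps6 were chosen after their values were seen. 0 columns lacked a group.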

Additional observations from a re-analysis of the deposited data

How the results depend on the processing

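The exonic and intronic medians over all tested members moved by less than the spread between libraries under every alternative run. That spread comes from the same library differences, so leaving out 1 library could hardly move a median past it. A replicate block leaves the log2 fold changes unchanged. Those runs therefore do not show that the medians are stable. Medians by subunit, origin and length class were not recomputed under the alternative runs. Counts of called members changed as follows. With library order as a replicate block, the calls of Dicer KO over Dicer WT were 25 in exonic reads (11 higher, 14 lower; 47.2% of all genes), 9 in intronic reads (30.5% of all genes) and 3 for the exonic minus intronic change (9.37% of all genes). That block gave 1 exonic and 2 intronic calls for Pbx3 (6.07% and 7.28% of all genes), 17 and 8 for Sox9, all lower (18.5% and 18.6%), and 4 and 2 for Tead4 (8.75% and 16.2%). The labels give no replicate numbers, so this pairing is a hint from the data and not the design. For the exonic minus intronic change of Dicer KO, 0 members were called in 3 settings. These were a minimum mean of 10 (0.491% of all genes), no minimum (0%) and scaling to total reads (3.11%). The share of all genes called also changed from fit to fit when a library was left out. Leaving out 1 library at a time gave 0 to 5 calls for Dicer KO in exonic reads, 0 to 1 in intronic reads and 0 to 3 for the difference. It gave 0 to 10 exonic and 0 to 1 intronic calls for Sox9, and 0 to 8 exonic and 0 to 1 intronic calls for Tead4; a lone library is then assumed to vary like the others. With scaling to total reads, Mrpl42 was called in exonic reads in place of Mrps28. The causes were not tested. voom was not run for the exonic minus intronic change. With 2 libraries per group a missed threshold does not show that a member did not change.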
